A study of Homo sapiens with 9 samples.

Results

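The genes described here encode 9 enzymes of the pentose phosphate pathway and of NADPH production outside it, namely *PGLS*, *PGD*, *RPIA*, *RPE*, *TKT*, *TALDO1*, *ME1*, *IDH1* and *IDH2*. They were taken by symbol, and all 9 were found among the 59452 rows of the gene table. They were chosen by symbol with the counts of the 3 conditions, and the folds between them, already known, and no threshold on those values was stated. The folds and adjusted p-values of these enzymes therefore describe where they lie in a fit of all genes and are not independent evidence of their direction.

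The pentose phosphate pathway diverts glucose-6-phosphate from glycolysis. Its oxidative branch makes NADPH, the reducing equivalent that cells spend on fatty acid and sterol synthesis and on the repair of oxidized glutathione and thioredoxin, and its non-oxidative branch exchanges ribose-5-phosphate, the sugar of nucleotides, with glycolytic sugars. Cytosolic malic enzyme and the NADP-linked isocitrate dehydrogenases make NADPH from malate and isocitrate, outside the pathway.

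MDA-MB-453 is a human breast cancer cell line, described by the submitters as triple-negative, and the RNA-seq study of it asked how forced suspension culture and the compound AT0174, an inhibitor of both TDO2 and IDO1, affect its transcripts. All 9 libraries come from wild-type cells of this 1 line in DMEM with fetal bovine serum. They are 3 of attached cells with the vehicle DMSO, 3 of cells kept in suspension on poly-hema coated plates with the vehicle, and 3 of suspended cells with 10 µM AT0174, each exposed for 48 hours. No attached cells with AT0174 are among them, so an effect of the compound can be read in suspension only. According to the study's methods the conditions were run as biological replicates, and the labels add nothing on the cultures.

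Each library held between 36649997 and 48019126 estimated counts, and 15528 genes passed a filter on low counts. The luminal epithelial markers *EPCAM*, *KRT8*, *KRT18*, *KRT19*, *CDH1*, *FOXA1* and *SPDEF* were present in every library, with summed levels of 3606 to 3721 CPM (counts scaled to a common library total) in attached cells and 3941 to 4159.8 CPM in suspended ones. Of 8 markers of other cell types, 5 (*PTPRC*, *PECAM1*, *COL1A2*, *DCN* and *ACTA2*) stayed under 10 counts in every library, with *DCN* at 0 throughout, and *COL1A1* gave most of the list's summed level. That level was 133 to 151 CPM in attached cells, 114 to 115 CPM in vehicle-treated suspended cells and 109 to 116 CPM with AT0174. The share of counts from mitochondrial genes was 7.56% to 9.32% in attached cells, 4.05% to 4.34% in vehicle-treated suspended cells and 3.73% to 5.51% with AT0174.

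Because several of these enzymes are known targets of NRF2, a transcription factor of the oxidative stress response that binds the antioxidant response element, the promoter windows were searched for the core of that element, TGACNNNGC, on both strands. The windows are those of RefSeq (GRCh38.p14), 250 bases before to 50 bases after each start, and all 9 enzymes had one. The core was found in windows of 4 of the 9 genes, *PGD*, *RPE*, *ME1* and *IDH1*, against 16.1% of the 27305 genes with a window. Of the other NRF2 targets listed further below, 11 had such a window. Of these 11, 4 held the core (*GCLM*, *TXNRD1*, *MGST1* and *EPHX1*), or 36.4% against the 16.1% of all genes. The rest of the 11 lacked it there, so a known target can be without it. The *IDH1* match lies in 1 of the 2 windows given for that gene. The stretches around the matches of the 3 expressed genes are shown so that the letters can be read, 5′ to 3′ on the strand of the gene, with the core in capitals. They are chr1:10398853-10398881 (plus strand, 201 bases before the start), chr2:210002477-210002505 (plus strand, 151 bases before) and chr2:208255196-208255224 (minus strand, 143 bases before). Each start is that of the RefSeq window, and the *PGD* and *IDH1* stretches lie inside the GENCODE gene spans given below. In *PGD* the core runs on the opposite strand, as GCNNNGTCA.
PGD: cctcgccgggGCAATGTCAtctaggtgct
RPE: ggcggacggcTGACAGCGCcccaccccag
IDH1: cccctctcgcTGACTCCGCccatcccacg

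The windows of *ME1*, which holds the core but had no counts, and of *TKT*, which holds no core but had the largest fold of the 9 enzymes with AT0174, are shown as contrasting cases. The *ME1* bases are the 250 before its start (chr6:83431052-83431301, minus strand), with the core in capitals 137 bases before the start. The *ME1* window holds 2 matches, and the other, on the opposite strand 11 bases after the start, lies outside the bases shown. The *TKT* bases are the first 200 of its window (chr3:53256073-53256272, minus strand), in lower case because they hold no match.
ME1: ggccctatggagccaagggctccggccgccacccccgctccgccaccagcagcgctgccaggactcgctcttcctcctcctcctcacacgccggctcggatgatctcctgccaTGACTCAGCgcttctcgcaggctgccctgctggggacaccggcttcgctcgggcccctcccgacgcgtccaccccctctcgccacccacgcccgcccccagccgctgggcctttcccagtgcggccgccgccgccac
TKT: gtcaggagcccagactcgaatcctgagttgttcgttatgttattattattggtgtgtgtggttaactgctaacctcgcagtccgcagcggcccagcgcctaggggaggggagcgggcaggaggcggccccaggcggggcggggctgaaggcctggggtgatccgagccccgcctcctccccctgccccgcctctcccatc

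A match is a string of letters and not a measured binding site, and its absence says only that these letters are not in this window. The other 4 genes, *PGLS*, *RPIA*, *TALDO1* and *IDH2*, had no match either. Of the 3 enzymes called higher with AT0174, 1 (*PGD*) had a match.

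Levels of different genes were compared per length, as TPM, which divide the counts by the effective length of the transcript and scale them to a common total. In attached cells the order was *TKT*, *PGD*, *TALDO1*, *IDH1*, *PGLS*, *RPE*, *IDH2*, *RPIA* and *ME1*, and no neighbours in that order overlapped over their 3 libraries. That order is of all transcripts of a gene together, and coding transcripts alone were not ranked. Transcripts annotated as coding held as little as 37.5% of *TKT* TPM in a library, against 90.4% for *PGD* and 89.6% for *TALDO1*. In attached cells a *TKT* transcript annotated for nonsense-mediated decay, ENST00000450814, held 26.4% to 27.3%. *TKT*, the transketolase that moves carbon pairs between sugar phosphates, had 812 ± 7.76 TPM (SD, n = 3) and stood at rank 147 of the 24690 genes above 0. *PGD*, the dehydrogenase that makes the pathway's second NADPH, had 715 ± 23.5 TPM. *TALDO1*, transaldolase, had 483 ± 13.0 TPM. The 3 genes were thus far above the pentose phosphate isomerase *RPIA*, at 10.7 ± 0.53 TPM, and the epimerase *RPE*, at 59.3 ± 1.61 TPM. Outside the pathway the cytosolic isocitrate dehydrogenase *IDH1* had 154 ± 9.27 TPM, and its mitochondrial relative *IDH2* had 21.8 ± 0.84 TPM. The ratio of *IDH1* to *IDH2* TPM within a library was 6.54 to 7.34 in attached cells, 6.55 to 7.62 in vehicle-treated suspended cells and 7.22 to 7.45 with AT0174, so the groups overlapped.

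**Figure D1:**
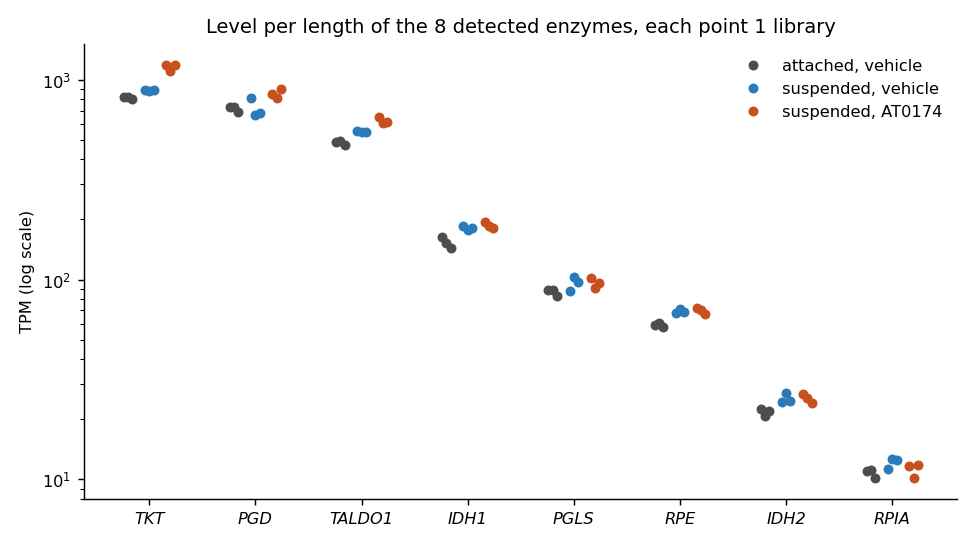
Level per length of the 8 detected enzymes, in TPM on a log axis, with 1 point per library and colours for the 3 groups. *TKT*, *PGD* and *TALDO1* sit between 469 and 1188 TPM in every library, and *RPIA* stays at 12.7 TPM or below.

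Summed over the enzymes, the non-oxidative branch (*RPIA*, *RPE*, *TKT* and *TALDO1*) had 1365 ± 22.5 TPM in attached cells, 1519 ± 5.59 in vehicle-treated suspended cells and 1862 ± 64.1 with AT0174 (SD, n = 3 each). Its 3 groups did not overlap, and *TKT* and *TALDO1* gave nearly all of the sum. The 2 oxidative enzymes *PGD* and *PGLS* together had 801 ± 27.2, 814 ± 75.1 and 950 ± 46.1 TPM in the same order, and *IDH1* with *IDH2* had 175 ± 9.54, 207 ± 3.08 and 212 ± 7.38 TPM. Deposited TPM are relative to each library's own total. Over all tested genes the median log2 ratio of TPM was 0.10 between suspended and attached cells with vehicle, −0.04 between AT0174 and vehicle, and 0.06 between suspended cells with AT0174 and attached cells. Changes between groups are therefore given below on CPM scaled by edgeR's TMM, where the median log2 fold change of all genes was within 0.01 of 0.

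In suspended cells with vehicle, the 2 enzymes called higher than in attached cells were *IDH1* and *TALDO1*, by 11.3% and 6.57%. Of the 15528 genes tested, 10.4% were called higher in this comparison and 21.2% in either direction. Among the 9364 genes with a mean over 10 CPM, as all tested members have, 16.2% were called higher. The median log2 fold change of the 8 enzymes tested was 0.07, against −0.0003 over all genes. The mitochondrial share and the summed markers given above also differed between attached and suspended cells, and their part in these values was not tested. In bulk RNA a larger change in some cells and a smaller one in all of them cannot be told apart. With AT0174 in suspension, *TKT*, *PGD* and *TALDO1* were called higher than with vehicle, by 35.3%, 22.0% and 16.8%. Only 0.522% of the tested genes were called higher in that comparison and 0.779% in either direction, or 0.78% higher among those over 10 CPM. The median log2 fold change of the 8 enzymes was 0.12, against 0.0013 over all genes. Suspended cells with AT0174 had 5 of the 8 enzymes called higher than attached cells with vehicle, *TKT*, *TALDO1*, *PGD*, *IDH1* and *RPE*, where 12.2% of all tested genes were called higher and 24% in either direction, or 18.6% higher among those over 10 CPM. The median was 0.23, against −0.0017 over all genes. Calls are at an adjusted p under 0.05 in edgeR's quasi-likelihood test. By edgeR, DESeq2 and limma-voom alike none of the 8 was called lower in any comparison. Of all tested genes edgeR called 10.8%, 0.258% and 11.8% lower in the 3 comparisons. None of the 8 had an unadjusted edgeR p under 0.05 in that direction, whereas 3, 5 and 6 had one in the higher direction. The largest of these p were 0.047 (*RPE*), 0.0082 (*IDH1*) and 0.036 (*IDH2*) in the same order. They ranked 5185, 474 and 5157 among the 15528 genes in either direction. A large part of all genes thus passed this cut in both comparisons with attached cells. The share of all genes under this cut in each direction was not taken. The counts of 3, 5 and 6 are therefore not read as a direction of the enzymes. The first and second comparison share the suspended cells with vehicle, and the third shares a group with each of them.

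**Figure D2:**
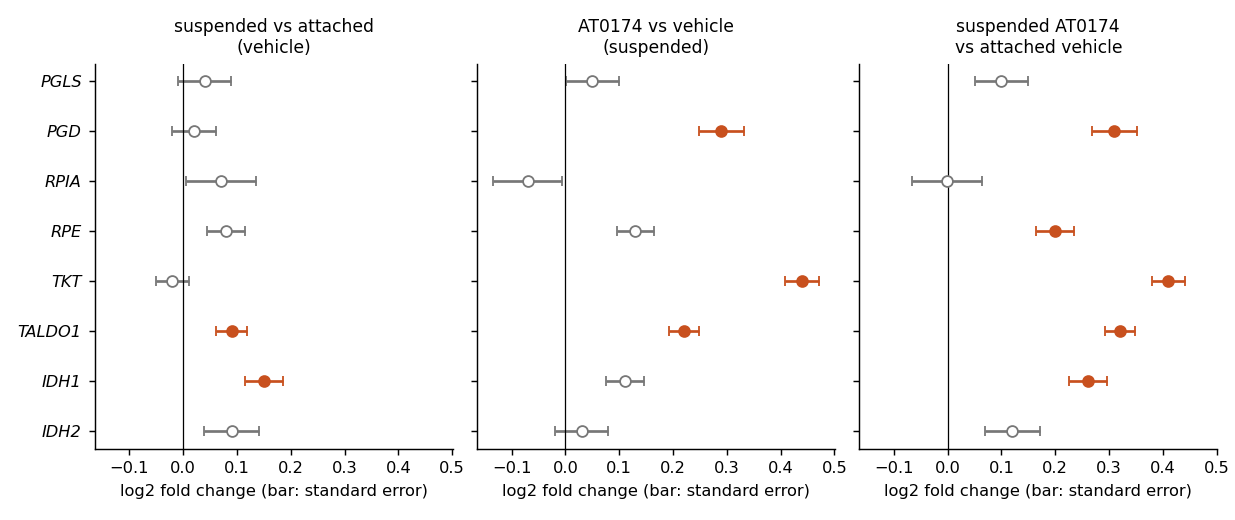
Log2 fold change of the 8 tested enzymes in the 3 comparisons, with bars of 1 standard error and filled points where the adjusted p was under 0.05. *TKT*, *PGD* and *TALDO1* have filled points with AT0174, *IDH1* and *TALDO1* in suspension, and *RPIA* lies at 0.07, −0.07 and 0.00.

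The oxidative branch is represented by *PGLS* and *PGD*. *PGLS* (ENSG00000130313, chr19:17511636-17521288) encodes the lactonase that opens the first product of the pathway. It had 53.6, 53.3 and 51.2 CPM in attached cells, 50.6, 57.6 and 54.8 CPM in vehicle-treated suspended cells, and 58.6, 54.4 and 56.1 CPM with AT0174. Suspended cells on vehicle overlapped both other groups, those with AT0174 lay above the attached ones, and no comparison was called.

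*PGD* (ENSG00000142657, chr1:10398592-10420511) encodes the next NADPH-making step. It had 649, 659 and 633 CPM in attached cells, 701, 624 and 641 CPM in vehicle-treated suspended cells, and 806, 776 and 816 CPM with AT0174. The 3 libraries with AT0174 were above all 6 others, and attached and suspended cells on vehicle overlapped. The log2 fold change with AT0174 against vehicle was 0.29 (standard error 0.0413, edgeR adjusted p = 0.00447), and against attached cells it was 0.31 (standard error 0.0414, edgeR adjusted p = 0.000382). With counts rebuilt from TPM, which leaves transcript length out of the counts, the first of these was 0.29 with a standard error of 0.0768 (adjusted p = 0.381), as large as before with a wider error, and the second was 0.20 with a standard error of 0.0767 (adjusted p = 0.133), so both calls were lost.

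The makeup of *PGD* by transcript differed between libraries. Its 2268-base transcript ENST00000270776 held 41.7%, 42.1% and 41.6% of the gene's TPM in attached cells, 42.6%, 53.3% and 53.7% in vehicle-treated suspended cells, and 51.6%, 48.6% and 46.5% with AT0174. All 6 suspended libraries were above the 3 attached ones. Among the vehicle-treated suspended libraries replicate 1 was near the attached level, and the other two were above every library with AT0174. An 806-base coding transcript, ENST00000491493, held 35.9% to 39.9% in attached cells, 28.1% to 35.5% in vehicle-treated suspended cells and 29.4% to 35.5% with AT0174. The effective length of the gene was 1237 to 1245 bases in attached cells, 1254 to 1418 bases in vehicle-treated suspended cells and 1312 to 1388 bases with AT0174. In TPM the gene had 851, 812.2 and 899 with AT0174 against 812.2, 662 and 678 in vehicle-treated suspended cells, so the lowest treated and the highest vehicle library were equal to the digits shown.

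The non-oxidative branch starts from ribulose-5-phosphate. *RPIA* (ENSG00000153574, chr2:88691673-88750929), the isomerase that makes ribose-5-phosphate, had 13.0, 13.3 and 12.4 CPM in attached cells, 12.8, 14.0 and 13.8 CPM in vehicle-treated suspended cells, and 13.2, 11.9 and 13.5 CPM with AT0174. All 3 groups overlapped. Its log2 fold change was 0.07 in suspension (standard error 0.0653, edgeR adjusted p = 0.517) and −0.07 with AT0174 (standard error 0.0645, edgeR adjusted p = 0.836).

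*RPE* (ENSG00000197713, chr2:210002565-210022260), the epimerase that makes xylulose-5-phosphate, had 53.1, 54.1 and 53.1 CPM in attached cells, 56.1, 58.1 and 54.9 CPM in vehicle-treated suspended cells, and 62.1, 60.8 and 61.6 CPM with AT0174. The 3 groups did not overlap and stood in that order. Neither single step was called, with log2 fold changes of 0.08 in suspension (standard error 0.0353, edgeR adjusted p = 0.141) and 0.13 with AT0174 (standard error 0.0348, edgeR adjusted p = 0.176). Against attached cells, suspended cells with AT0174 were higher by 0.20 (standard error 0.0351, edgeR adjusted p = 0.00165). On TPM the step in suspension was 17.2% without overlap, against 5.54% on CPM. Its log2 ratio on TPM was 0.13 above the median of all genes. The step with AT0174 was 0.592% on TPM with overlap, against 9.05% on CPM, a log2 ratio 0.05 above the median of that comparison. The effective length of the gene was 1229 to 1239 bases in attached cells. In suspension it was 1192 to 1219 bases with vehicle and 1212 to 1328 bases with AT0174.

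*TKT* (ENSG00000163931, chr3:53224712-53256052) had 934, 925 and 924 CPM in attached cells, 946, 880.3 and 916 CPM in vehicle-treated suspended cells, and 1239.9, 1218 and 1251 CPM with AT0174. All 3 libraries with AT0174 were above the other 6, and the attached libraries lay within the range of the suspended ones with vehicle. The log2 fold change with AT0174 was 0.44 (standard error 0.0311, edgeR adjusted p = 8.99e-06), the 9th smallest p of all genes tested. In suspension with vehicle it was −0.02 (standard error 0.0311, edgeR adjusted p = 0.674). On TPM as deposited *TKT* was 9.16% higher in suspended than in attached cells without overlap, a log2 ratio 0.02 above the median of all genes. The call with AT0174 held in every alternative of the fit, at log2 fold changes of 0.40 to 0.46 and adjusted p of at most 0.000704.

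*TALDO1* (ENSG00000177156, chr11:747415-765012) had 352, 356 and 349.7 CPM in attached cells, 384, 373 and 371 CPM in vehicle-treated suspended cells, and 447, 439 and 431 CPM with AT0174. The 3 groups did not overlap, and *TALDO1* was the only enzyme called higher in all 3 comparisons. In suspension its log2 fold change was 0.09 (standard error 0.0285, edgeR adjusted p = 0.0378), a call that was lost in 10 of 17 alternatives, among them every fit without 1 library of either group compared, at log2 fold changes of 0.08 to 0.10 and adjusted p of up to 0.0957. With AT0174 against vehicle it was 0.22 (standard error 0.0284, edgeR adjusted p = 0.00177), and this call held in every alternative, at 0.21 to 0.23 and adjusted p of at most 0.0188. Against attached cells, suspended cells with AT0174 were higher by 0.32 (standard error 0.0285, edgeR adjusted p = 1.73e-05).

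**Figure D3:**
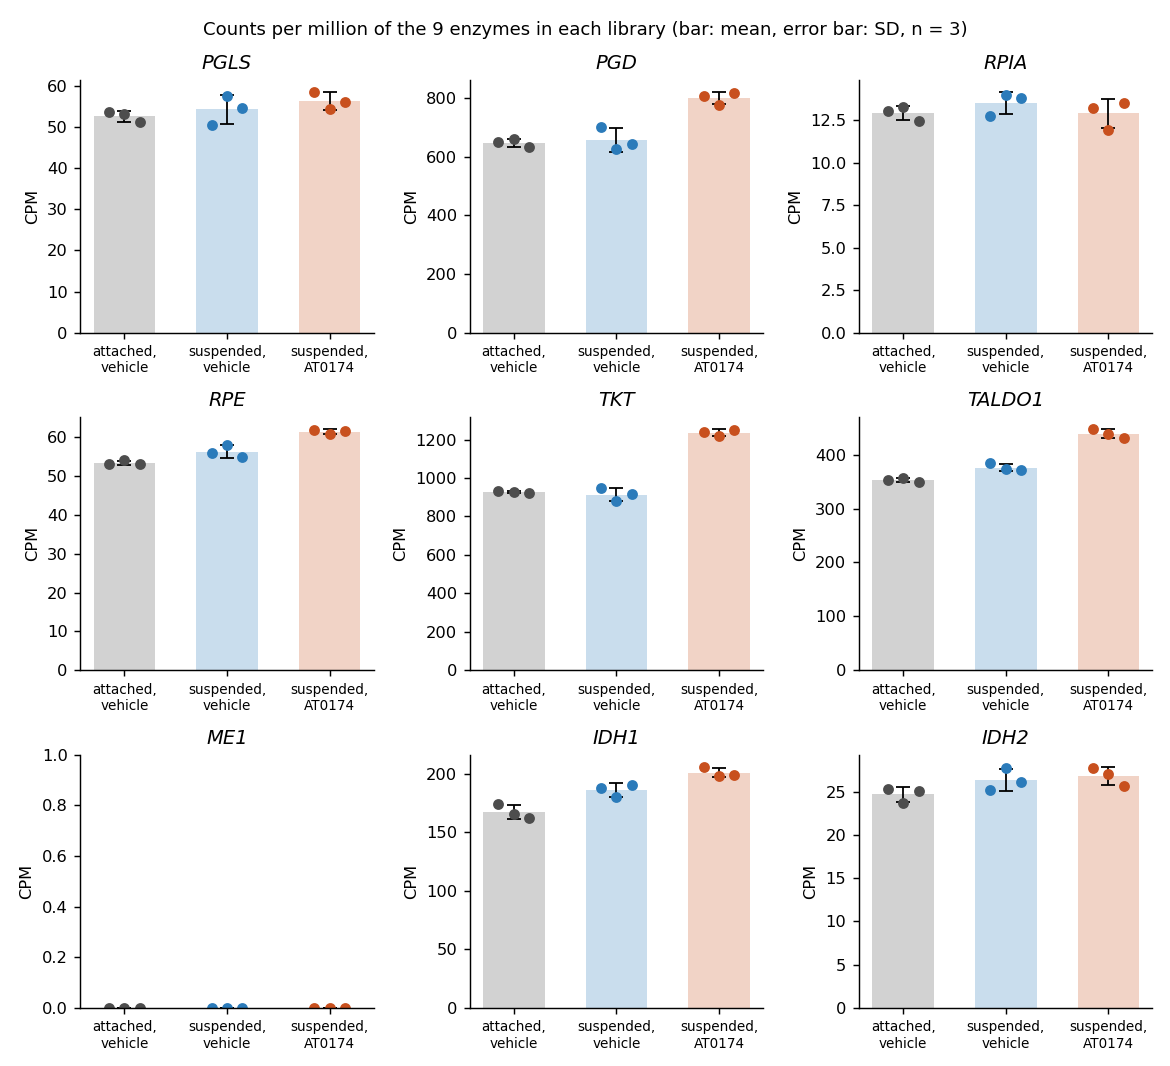
CPM of each of the 9 enzymes by group, with points for single libraries, bars for means and error bars for the SD (n = 3), each panel on its own axis from 0. The points with AT0174 are above all others for *PGD*, *RPE*, *TKT*, *TALDO1* and *IDH1*, and *ME1* is at 0 in all 9 libraries.

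*TKT* and *TALDO1* catalyse alternating carbon transfers in the non-oxidative branch. Their log2 CPM correlated over the 9 libraries (Pearson's r = 0.936). Both were called higher with AT0174, by the unequal amounts of 35.3% and 16.8%, and only *TALDO1* was called in suspension. This pair was chosen after the values were seen. The ratio of *TKT* to *TALDO1* TPM within a library was 1.68, 1.65 and 1.71 in attached cells, 1.61, 1.60 and 1.62 in vehicle-treated suspended cells, and 1.84, 1.81 and 1.92 with AT0174. The ratio was lowest in vehicle-treated suspended cells and highest with AT0174, and the groups did not overlap. It is of all transcripts of each gene together, and a ratio of coding transcripts alone was not taken. Transcripts annotated as coding held as little as 37.5% of *TKT* TPM in a library, against 89.6% for *TALDO1*. The separation is therefore not shown for coding transcripts. The ratio of *PGD* to *TKT* was 0.856 to 0.895 in attached cells, 0.754 to 0.914 in vehicle-treated suspended cells and 0.716 to 0.762 with AT0174, where the 2 suspended groups overlapped.

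**Figure D4:**
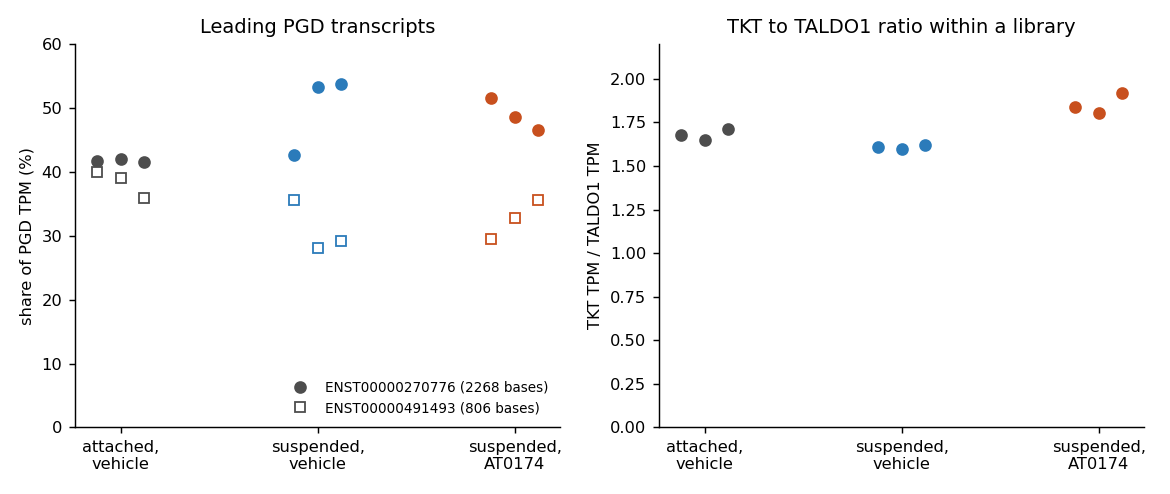
Left, the share in percent of *PGD* TPM from its leading transcripts in each library, with filled circles for ENST00000270776 and open squares for ENST00000491493. Right, the ratio of *TKT* to *TALDO1* TPM in each library, where the suspended libraries with AT0174 lie between 1.81 and 1.92 and those with vehicle between 1.60 and 1.62.

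Outside the pathway, *IDH1* (ENSG00000138413, chr2:208236229-208266074) had 174, 166 and 162 CPM in attached cells, 188, 179.8 and 191 CPM in vehicle-treated suspended cells, and 206, 198 and 199 CPM with AT0174. The 3 groups did not overlap. The log2 fold change in suspension was 0.15 (standard error 0.0355, edgeR adjusted p = 0.00969), and with counts rebuilt from TPM, the 1 alternative that lost the call, it was 0.14 (standard error 0.0432, adjusted p = 0.0769). With AT0174 against vehicle it was 0.11 (standard error 0.0352, edgeR adjusted p = 0.267) and was not called. On TPM that step was 2.83% with overlap, against 7.96% on CPM, a log2 ratio 0.08 above the median of all genes. Suspended cells with AT0174 were higher than attached cells by 0.26 (standard error 0.0354, edgeR adjusted p = 0.000348). Its leading transcript ENST00000345146 held 59.5% to 66.8% of the gene's TPM, and a 556-base retained-intron transcript held 29.8% to 36.9%.

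*IDH2* (ENSG00000182054, chr15:90083045-90102477) had 25.3, 23.7 and 25.2 CPM in attached cells, 25.3, 27.8 and 26.2 CPM in vehicle-treated suspended cells, and 27.8, 27.1 and 25.7 CPM with AT0174. Suspended cells on vehicle overlapped both other groups, and those with AT0174 lay above the attached ones. Its log2 fold change was 0.09 in suspension (standard error 0.051, edgeR adjusted p = 0.218), 0.03 with AT0174 (standard error 0.05, edgeR adjusted p = 0.939) and 0.12 between suspended cells with AT0174 and attached cells (standard error 0.0507, edgeR adjusted p = 0.109), none of them called.

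*ME1* (ENSG00000065833, chr6:83210402-83431051, minus strand), cytosolic malic enzyme, had 0 counts in all 9 libraries, which allows up to 3 counts per library or 0.0625 to 0.0819 CPM for counting error alone. It was the only one of the 9 enzymes that did not pass the filter on low counts. The mitochondrial malic enzymes *ME2*, which prefers NAD, and *ME3*, which uses NADP, had 901 to 1282 and 457 to 613 counts, and neither was called in any comparison. The neighbours of *ME1* on chromosome 6, looked up after this value was seen, were mixed. Of the protein-coding genes within 500000 bases, *UBE3D*, *DOP1A*, *PGM3* and *RWDD2A* on the side of lower coordinates had between 84 and 2069 counts. On the other side *PRSS35*, *SNAP91* and *RIPPLY2* also had 0 counts in every library, and *CYB5R4*, beyond them, had 416 to 658.

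Counting over all members, the groups of suspended and attached cells with vehicle did not overlap for 3 of 8 enzymes, all 3 higher in suspension, against 38.1% of tested genes in either direction and 19.4% higher. AT0174 and vehicle in suspension did not overlap for 5 of 8, all higher with AT0174, against 15.4% and 7.75%, and suspended cells with AT0174 and attached cells did not overlap for 7 of 8, all higher in suspension, against 39.5% and 20.4%. Sequences close to the members took few counts. The pseudogene *PGDP1* and the intronless copy *RPEL1* each had at most 6 counts in a library, *TKTL1* at most 1, *TKTL2* 0, and the antisense gene *IDH1-AS1* 4 to 10.

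The enzymes around them were read from lists chosen with earlier results of these data known. Beside the list counts below, 10.4% of all tested genes were called higher in suspension and 10.8% lower. With AT0174 these shares were 0.522% and 0.258%. Among genes over 10 CPM, 16.2% were called higher in suspension and 0.78% with AT0174. Of 11 other NADPH producers and NAD kinases, 9 were tested, and 4 were called higher in suspension, including *GLUD1*, glutamate dehydrogenase (0.16, standard error 0.037, edgeR adjusted p = 0.0103), and *MTHFD2* of mitochondrial folate metabolism (0.15, standard error 0.0357, edgeR adjusted p = 0.0113). Their median log2 fold change was 0.13 in suspension and −0.02 with AT0174, where edgeR called none, DESeq2 1 and limma-voom 0. The 1 with an unadjusted edgeR p under 0.05 there was *GLUD1*, at −0.14 and without overlap (standard error 0.0368, edgeR adjusted p = 0.165), the opposite sign to its change in suspension. With counts rebuilt from TPM none of the 9 was called in suspension, and 2 were when attached replicate 1, attached replicate 3 or suspended vehicle replicate 2 was left out. Of the enzymes that feed or drain the pentose pool, 9 of 12 were tested. *PRPSAP2*, a partner of ribose-phosphate pyrophosphokinase, was the only one called in suspension (0.20, edgeR adjusted p = 0.0172), and was not when attached replicate 2, attached replicate 3 or suspended vehicle replicate 2 was left out. With AT0174 edgeR, DESeq2 and limma-voom called 0, with 0 at an unadjusted edgeR p under 0.05. The medians were 0.13 and 0.01.

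Glycolytic enzymes that share sugar phosphates with the pathway were all tested, 14 of 14. In suspension 4 were called higher, with the smallest p in hexokinase *HK2* (0.28, edgeR adjusted p = 0.000296), *GPI* (0.15, edgeR adjusted p = 0.00413) and aldolase *ALDOA* (0.17, edgeR adjusted p = 0.00475). *FBP1*, fructose-1,6-bisphosphatase, was called lower (−0.44, edgeR adjusted p = 0.0116). With AT0174 edgeR called none of the 14, 4 had an unadjusted p under 0.05, DESeq2 called 1 and limma-voom 0, and their median was 0.05. Among 11 neighbours of *IDH1*, *IDH2* and *ME1* in isocitrate and malate metabolism, *MDH1* was called higher (0.23, edgeR adjusted p = 0.0126) and pyruvate carboxylase *PC* lower (−0.22, edgeR adjusted p = 0.00271) in suspension, and 1 was called when suspended vehicle replicate 2 was left out. With AT0174 edgeR, DESeq2 and limma-voom called 0 of these 11, with 0 at an unadjusted edgeR p under 0.05.

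Enzymes that spend NADPH fell into a synthetic and a detoxifying list. Of 17 synthetic enzymes 8 were called higher in suspension, with the smallest p in *SRD5A3* of dolichol synthesis (0.24, edgeR adjusted p = 0.00154) and *PYCR3* of proline synthesis (0.33, edgeR adjusted p = 0.00155). The 8 calls were 5 when suspended vehicle replicate 2 was left out and 4 with counts rebuilt from TPM. With AT0174 edgeR, DESeq2 and limma-voom called 0, and 3 had an unadjusted edgeR p under 0.05. Of 19 detoxifying reductases 17 were tested, and 4 were called higher in suspension and 4 with AT0174. With AT0174 these included the quinone reductase *NQO1* (0.79, edgeR adjusted p = 1.1e-07), the thioredoxin reductase *TXNRD1* (0.56, edgeR adjusted p = 2.5e-06) and *AKR1C2* (0.71, edgeR adjusted p = 0.0168). Their median log2 fold change was 0.11 in suspension and 0.14 with AT0174. The 4 calls in suspension were 2 when attached replicate 3, suspended vehicle replicate 1 or suspended vehicle replicate 3 was left out. The 4 with AT0174 were 2 when suspended vehicle replicate 3 or AT0174 replicate 1 was, and 2 with counts rebuilt from TPM.

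Of 16 other targets of NRF2, a list that also holds *NQO1* and *TXNRD1*, 15 were called higher with AT0174, with a median log2 fold change of 0.42 against 0.0013 over all genes. With counts rebuilt from TPM it was 8 of the 16, and with 1 library left out 13 to 15. In suspension with vehicle 5 of the 16 were called higher and 4 lower, with a median of −0.02, and of these 9 calls 3 were made when attached replicate 3 was left out, 5 when suspended vehicle replicate 2 was, and 4 from TPM. *SLC7A11*, the cystine transporter, was higher in both (0.56 in suspension, 0.65 with AT0174), and heme oxygenase *HMOX1* was lower in suspension (−0.37, edgeR adjusted p = 0.002) and higher with AT0174 (1.00, edgeR adjusted p = 2.5e-06). *FTH1*, the ferritin heavy chain, was likewise lower in suspension (−0.12, edgeR adjusted p = 0.0205) and higher with AT0174 (0.69, edgeR adjusted p = 3.2e-07). *NFE2L2*, which encodes NRF2, was not called in any comparison, with log2 fold changes of 0.03, −0.01 and 0.01. *TDO2*, which encodes a target of the compound, was called higher in suspension (0.54) and with AT0174 (0.23). The median of the 8 enzymes described here with AT0174, 0.12, lay between that of the NRF2 list and those of the other metabolic lists except the detoxifying one.

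**Figure D5:**
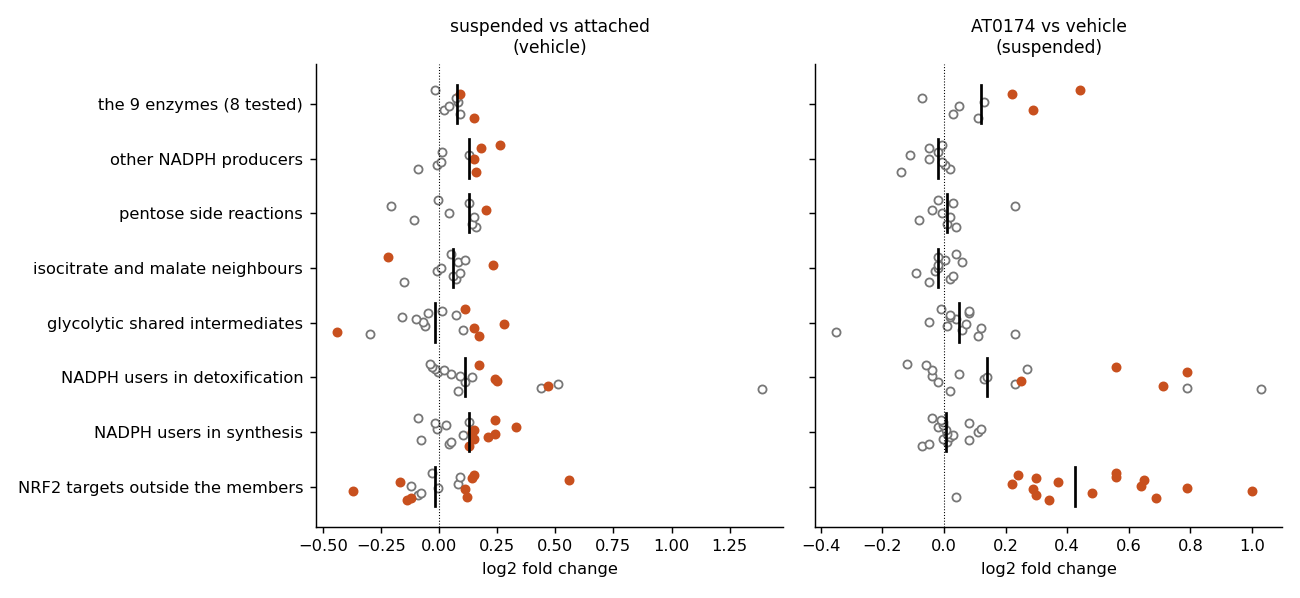
Log2 fold change of each tested gene of the 9 enzymes and of the 7 context lists in suspension (left) and with AT0174 in suspension (right), with filled points where the adjusted p was under 0.05 and black bars at the medians. With AT0174, filled points are found among the 9 enzymes (3), the detoxifying reductases (4) and the NRF2 targets (15), and in none of the other 5 lists.

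For each enzyme, the gene with the most similar log2 CPM over the 9 libraries was sought among 9356 genes with a mean of at least 10 CPM. It was *TXNRD1* for *TKT* (Pearson's r = 0.994), *SQSTM1* for *TALDO1* (0.982), *UGDH* for *PGD* (0.973) and *CDS1* for *IDH1* (0.99). For *RPE* it was *PCDH1* (0.989), for *RPIA* *ZBTB33* (0.969), and for *PGLS* and *IDH2* *TM2D3* and *NAA25* (both 0.959). The 9 points share 3 conditions and their libraries' scaling, and each r is the highest of many, so these are descriptions. Among the enzymes themselves r was highest for *PGD* with *TKT* (0.973), followed by *RPE* with *TALDO1* (0.959), and lowest for *RPIA* with *TKT* (−0.289).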

How the data were processed

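RNA-seq was measured in 9 libraries, 3 per group, grouped by the labels. The authors' estimated counts per gene and TPM per transcript were deposited as made with Salmon 1.10.1 after trimming (Trim Galore 0.6.7, cutadapt 3.4) and STAR 2.7.9a on GRCh38, per the submitters' processing notes. Counts carry no normalization, and the TPM that the authors deposited are per length and library total. Each gene count equalled the sum of its transcripts within 0.01. The labels name a SMARTER kit and the study's methods another, and whether counting used strand is not given in the sources used here.

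Counts were rounded, filtered by filterByExpr, scaled by TMM and fitted together in edgeR 4.0.16 (R 4.3.3) with the quasi-likelihood test and Benjamini-Hochberg adjustment over all 15528 genes. The 3 comparisons use all 9 libraries in 1 fit. CPM use TMM-scaled library sizes. Gene TPM are sums over transcripts. The procedure was tested on simulated data. The members and lists were chosen with earlier results of these data known. Genes named from a list are the 3 of smallest p in each of the first 2 comparisons, or fewer of them, and some genes of the lists are not reported here by name. Gene positions are from GENCODE release 44 (GRCh38). The alternatives tried were leaving out each library, a replicate block, a fit of only the 6 libraries compared, limma-voom (limma 3.58.1), DESeq2 1.42.0, its size factors in edgeR, rebuilding counts from TPM, no filter, at least 10 counts in every library, and an adjusted p of 0.01. Depths of 36649997 to 48019126 counts per library set the counting error, and limits for 0 counts cover that error only.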

Additional observations from a re-analysis of the deposited data

How the results depend on the processing

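Leaving out each library in turn kept 3 enzymes called with AT0174 and 5 between suspended cells with AT0174 and attached cells, while in suspension the number was 1 to 2. That number, 2 in the report, was also 1 with no filter, with only the 6 libraries compared and at an adjusted p of 0.01, and 0 with counts rebuilt from TPM. Over all genes, 3297 were called in suspension (1396 from TPM, 1935 to 3260 with 1 library left out, the lowest without attached replicate 3, and 1951 without suspended vehicle replicate 2). With AT0174, 121 genes were called (239 with DESeq2, 499 with no filter, 31 from TPM, and 63 to 128 with 1 library left out, at most 70 without suspended vehicle replicate 1 or 3 or any AT0174 replicate). Between suspended cells with AT0174 and attached cells 3724 were called (1802 from TPM, 2239 to 3680 with 1 library left out, with 2381 without attached replicate 3 and the lowest without AT0174 replicate 1).

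Signs turned for values that were never called. In suspension *PGD* was −0.0925 from TPM and −0.029 to 0.0559 with 1 library left out (lowest without suspended vehicle replicate 1), and *TKT* was 0.0271 from TPM and −0.0436 to 0.0085 (highest without suspended vehicle replicate 2). With AT0174 *IDH2* was −0.0091 without suspended vehicle replicate 1 and −0.0007 without AT0174 replicate 1, up to 0.059 in the others. Between suspended cells with AT0174 and attached cells *RPIA* was 0.009 with no filter, 0.0083 from TPM, 0.0059 and 0.0191 without attached replicates 1 and 2, and 0.0505 without AT0174 replicate 2, down to −0.0385 without AT0174 replicate 3. The cause was not tested. Counts of calls in the 7 lists, taken list by list and alternative by alternative, moved by over 1.5 times 18 times in suspension, 7 times with AT0174 and 18 times in the third comparison. The order of levels per length was the same as CPM per kilobase.

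Replicate numbers did not pair the samples, since same-numbered libraries correlated at −0.0652 to 0.0526 in their deviations from the group means and 3 of 9 correlated best with their own number. A replicate block gave 3250, 146 and 3677 genes called and the same 2, 3 and 5 enzymes.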
